A study of Mus musculus with 18 samples.

Results

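The genes described here encode the pore-forming and accessory subunits of voltage-gated calcium, sodium and potassium channels and of the other potassium channels. They were chosen by symbol alone: a probe set (the group of short probes that reads 1 transcript) was taken where it names a single gene whose symbol begins with Cacna, Cacnb or Cacng and a digit, is Kcn followed by letters and a number, or is Scn followed by a number and a or b. No filter on low values was applied. The rule found 243 of 45037 probe sets, for 115 of 18193 genes. Each gene is described by its probe set of highest mean over all 18 arrays. The series compared 9 normal mouse prostates, taken from ventral and dorsolateral lobes, with 9 TRAMP tumours, 1 Affymetrix array for each sample. TRAMP mice are transgenic and develop adenocarcinoma of the prostate. In that model the SV40 early region, which encodes the large and small T antigens, is driven by the promoter of probasin, an androgen-dependent gene of prostate epithelium. The labels give no strain, age, treatment or stage for either group and do not say whether each sample came from a separate animal. The p-values below therefore measure the spread between these samples, and the number of arrays limits the precision. Both groups are bulk tissue, in which fewer cells of a type and less RNA per cell cannot be told apart.

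Voltage-gated channels open when the membrane is depolarised. Sodium channels carry the upstroke of the action potential, calcium channels couple it to secretion and contraction, and potassium channels bring the membrane back to rest. Potassium leak and inward rectifier channels set the resting potential in epithelium, and large-conductance calcium-activated channels (BK channels) relax smooth muscle and serve secretory epithelium. Neurons and neuroendocrine cells carry the widest set of these genes, and skeletal and smooth muscle have subunits of their own.

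Values are log2(signal + 16), where the signal is the authors' MAS5 intensity. A value under the 40th percentile of its array is called dim. No detection calls were used here. In a difference given as floored, dim values were raised to that percentile first. On 9 or more of the 18 arrays 53 of the 115 channel genes lay above the percentile (46.1%), against 70.2% of all genes. On every array 11 channel genes did so, and 17 did so on none. The number above it in a single array ran from 48 to 59 in normal prostates and from 38 to 61 in tumours, with the fewest in tumour 2 and the most in tumours 4 and 6.

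Few channel genes separated the groups. In tumours 4 of the 115 genes were higher and 5 lower at an adjusted p under 0.05 (limma with Benjamini-Hochberg adjustment over all 45037 probe sets), which is 7.83% of them. Among all genes 14.4% were called, with 6.91% higher and 7.44% lower, so in this fit channel genes were not called at a larger share than other genes. The median log2 difference over the 115 genes was 0.08, beside -0.00 over all genes. The 9 called genes were Kcnk3, Kcnk15, Kcnma1, Scn7a and Scn4b, which fell, and Cacna1a, Scn1a, Kcnab2 and Kcnd1, which rose. For none of the 115 genes did the 2 groups lie fully apart, where 1.79% of all genes did. Among the 53 genes above the 40th percentile on at least 9 arrays, 3 were called higher and 4 lower. Over all genes of that kind 8.3% were higher and 9.61% lower. Of the 243 probe sets 9 were higher and 9 lower (7.41%), where 6.16% of all probe sets were higher and 5.32% lower (11.5% in all). Of the 71 genes with several probe sets none had calls in opposite directions.

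**Figure D1:**
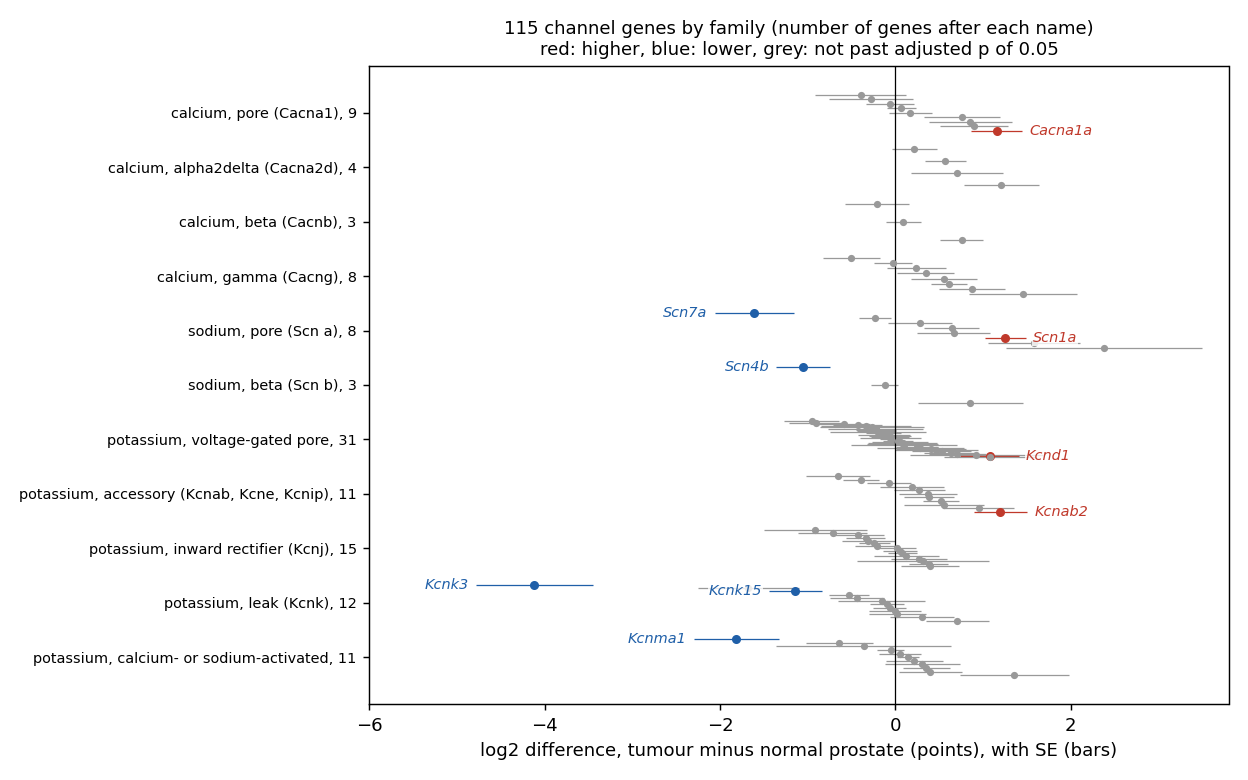
Each point is 1 of the 115 channel genes, placed by its log2 difference between tumour and normal prostate on the x axis with its SE as a bar, in rows by family. The differences of the 9 called genes run from -4.12 for Kcnk3 to 1.25 for Scn1a, and the largest positive difference, 2.38 for Scn3a, belongs to a gene that was not called, has a wide SE and was dim on all 9 normal prostates.

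Technical features of the arrays bear on every comparison. Poly-A spike controls, which are added to RNA before labelling, gave log2 signals of 9.78 to 12.43 on 11 arrays (6 normal prostates, 5 tumours). They were dim, at 4.81 to 5.27, on the remaining 7 (3 normal prostates, 4 tumours). The 3' to 5' ratio of actin, a measure of RNA integrity that grows as RNA degrades, was 1.71 ± 0.69 (log2, SD, n = 9) in normal prostate and 1.12 ± 0.51 in tumours. With that ratio as a covariate 1 channel gene was higher (Scn1a) and 3 lower (Kcnk3, Scn7a and Kcna1), and 4.88% of all probe sets were called. Only Kcnk3, Kcnma1 and Scn7a passed within the arrays with bright controls, where 6.3% of all probe sets did. Within the arrays with dim controls 1 probe set of 45037 passed by limma and no channel gene did. In the fit with the poly-A set as a block the same 9 channel genes were called.

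Among potassium leak channels, which pass current at rest and hold the membrane potential negative, 2 of 12 genes fell and none rose by limma (4 passed an unadjusted p under 0.05, as did 30.3% of all genes). Kcnk3 encodes TASK-1, a leak channel closed by extracellular acid. It measured 9.15 to 13.38 in normal prostates, with a median of 12.29, and 4.58 to 9.55 in tumours, with a median of 7.58. All tumours but 3 lay below every normal prostate: tumours 6, 7 and 8, at 9.52, 9.55 and 9.27, overlapped with normal prostate 9, at 9.15. The mean fell from 11.72 ± 1.38 to 7.60 ± 1.69 (SD, n = 9 each), a log2 difference of -4.12 ± 0.67 SE or 17.4-fold (limma adjusted p = 0.000702, floored -3.69). This was the largest difference of any channel gene in either direction. A further probe set of the gene fell as well, by 2.01 on the log2 scale (limma adjusted p = 0.0015), and the remaining one, dim on all 18 arrays, gave -0.43 (limma adjusted p = 0.194).

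The fall of Kcnk3 was found in both sets of arrays, at -5.07 with bright and -2.88 with dim poly-A controls, though the second did not pass (limma adjusted p = 0.485). Markers of 2 cell populations fell with it. All 5 measured adipocyte genes were lower, with a summed signal of 377 to 44580 in normal prostates and 311 to 4373 in tumours, and Lep dim on all 9 tumours. Normal prostate 7, which had the highest Kcnk3 value, 13.38, had the lowest adipocyte score of the normal arrays, 5.94. A score is a mean of log2 values over the list. Of the 7 measured genes of prostate luminal epithelium, most of them secretory, 5 were lower, with a summed signal of 1093 to 194517 in normal prostates and 497 to 46457 in tumours, and Pbsn dim on all 9 tumours. Normal prostate 9, the lowest normal array in Kcnk3, also had the lowest luminal score of the normal arrays, 6.12, where the others stood at 11.43 or more. Tumours 6, 7 and 8, the highest tumours in Kcnk3, had luminal scores of 9.26, 6.57 and 8.72. Their smooth muscle scores, 12.94, 13.06 and 12.81, were the highest of the tumours. Normal prostate 9, however, had the highest smooth muscle score of the normal arrays, 12.79. The part of adipocytes, luminal cells and smooth muscle in the fall of Kcnk3 was not tested.

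Kcnk15 encodes a leak channel subunit related to TASK-1. Its level was low throughout, at 6.64 to 7.97 in normal prostates (median 7.33) and 4.63 to 7.32 in tumours (median 6.31). It was dim on 1 normal array and on 8 tumours. The log2 difference was -1.14 ± 0.30 SE (limma adjusted p = 0.0188), but floored it was -0.29, so little of it lies above the dim range. Kcnk1 encodes TWIK-1, a leak channel of epithelia. It was bright on all arrays, at 12.34 to 13.58 in normal prostates and 7.87 to 13.68 in tumours, and did not pass (-1.68 ± 0.57 SE, limma adjusted p = 0.0643). Normal prostates lay within a narrow range for this gene, and the spread came from tumours 9 and 1, at 7.87 and 9.19, with tumours 3 and 5 as high as normal prostate, at 13.07 and 13.68. Without tumour 3 it passed (-1.88, limma adjusted p = 0.0418), as it did without tumour 5 (-1.95, limma adjusted p = 0.0248). With no array left out, Kcnk1 passed when only probe sets above the 40th or 60th percentile on at least 9 arrays were tested (limma adjusted p = 0.0462 and 0.0404). Array weights gave -1.43 (limma adjusted p = 0.034). The acid-sensitive Kcnk5 (-0.16), the mechanosensitive Kcnk2 (0.71) and Kcnk6 (-0.53) had limma adjusted p-values of 0.881, 0.218 and 0.15.

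Of the calcium- or sodium-activated potassium channels and their beta subunits 1 of 11 genes fell and none rose. Kcnma1 encodes the pore of the BK channel. It measured 9.12 to 11.31 in normal prostates (median 11.005) and 6.56 to 10.87 in tumours (median 9.47). Normal prostate 9 stood apart at 9.12, since the other 8 lay between 10.52 and 11.31, and 8 tumours lay below those 8. Tumour 3, at 10.87, did not. Tumours 2, 1 and 9 were lowest, at 6.56, 7.69 and 7.86. The mean fell from 10.82 ± 0.68 to 9.001 ± 1.42, by 1.81 ± 0.49 SE on the log2 scale or 3.52-fold (limma adjusted p = 0.0206). Among its 5 probe sets this was the only one called. The others gave differences of -0.67, -1.33, -0.17 and -0.10. The difference was -2.40 within arrays with bright poly-A controls and -0.93 within those with dim ones, and with the actin ratio as a covariate it no longer passed (-1.52, limma adjusted p = 0.119). Smooth muscle markers, none of which was called of 10 measured, had a summed signal of 15731 to 112921 in normal prostates and 3741 to 156261 in tumours. Their score was lowest in tumours 9 and 2, at 7.72 and 7.80, which were also low in Kcnma1, but highest in tumour 7, at 13.06, where Kcnma1 was 9.91. The part of smooth muscle was not tested.

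Promoters of 88 of the 115 genes were matched in the RefSeq table of assembly GRCm38.p6. Those of Kcnma1, a potassium channel that fell, and of Scn7a and Scn1a, sodium channel pores that fell and rose, are printed so that their base composition can be compared. Each is the 250 bases before the annotated start, 5′ to 3′ on the strand of the gene, with capitals for matches on either strand to GGGCGG (a GC box). The core of the TATA box was searched in the same way as TATAAA. So was AGAACA, a hexamer within the elements bound by androgen and glucocorticoid receptors.
Kcnma1, chr14:24004206-24004455, minus strand: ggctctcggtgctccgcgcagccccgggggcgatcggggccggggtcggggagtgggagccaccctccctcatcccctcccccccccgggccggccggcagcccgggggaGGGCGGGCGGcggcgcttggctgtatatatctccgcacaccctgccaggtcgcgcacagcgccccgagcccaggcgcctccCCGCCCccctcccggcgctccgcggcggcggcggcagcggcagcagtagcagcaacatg
Scn7a, chr2:66784911-66785160, minus strand: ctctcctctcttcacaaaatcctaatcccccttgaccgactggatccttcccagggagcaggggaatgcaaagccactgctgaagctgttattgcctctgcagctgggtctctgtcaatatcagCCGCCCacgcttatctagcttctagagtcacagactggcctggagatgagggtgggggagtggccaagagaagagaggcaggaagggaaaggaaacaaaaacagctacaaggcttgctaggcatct
Scn1a, chr2:66440838-66441087, minus strand: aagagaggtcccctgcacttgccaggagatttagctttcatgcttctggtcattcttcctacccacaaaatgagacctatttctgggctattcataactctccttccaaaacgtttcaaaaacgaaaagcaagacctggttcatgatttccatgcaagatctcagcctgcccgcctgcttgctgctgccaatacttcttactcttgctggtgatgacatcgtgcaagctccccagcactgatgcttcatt
The Kcnma1 window holds 79.2% G and C with 31 CG dinucleotides and 3 GC boxes, 2 of which overlap. Windows of Scn7a and Scn1a hold 53.2% and 46.8% G and C with 3 and 4 CG dinucleotides, where the median of all promoters is 52.4% and 6, and Scn7a has 1 GC box. None of the 3 windows holds TATAAA or the hexamer. Other forms of the TATA box were not searched. Among all promoter windows of this length 32.7% hold a GC box, 12.4% TATAAA and 16.1% the hexamer. Over the 123 windows of channel genes the shares are 42.3%, 4.07% and 15.4%. These are matches of letters, and no binding was measured.

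BK channels are tuned by accessory subunits. The smooth muscle beta subunit Kcnmb1 measured 7.03 ± 0.98 and 7.43 ± 0.57 in normal prostate and tumours (limma adjusted p = 0.513), and Kcnmb4 7.18 ± 0.60 and 7.53 ± 0.55 (limma adjusted p = 0.427). Lrrc52, a gamma-type partner of this channel family outside the rule, fell from 8.59 ± 1.01 to 5.76 ± 0.64 (-2.83 ± 0.38 SE, limma adjusted p = 0.000138, floored -1.51) and was dim on all 9 tumours. On normal prostate 9 it was 6.29, and on the other normal arrays 7.58 or more. Lrrc26, the gamma subunit of BK channels in secretory epithelium, lay above the 40th percentile on all arrays. It measured 11.44 ± 1.32 and 9.91 ± 2.06 in normal prostate and tumours and did not pass (-1.54 ± 0.75 SE, limma adjusted p = 0.198). In tumours 1, 4 and 9 it was 7.41, 7.35 and 7.48, not far above their 40th percentiles of 7.21, 7.21 and 6.91. The other tumours had 8.93 or more. The small-conductance channel Kcnn2 gave 0.31 ± 0.43 SE (limma adjusted p = 0.699).

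Sodium channel genes went both ways. Of the 8 pore genes 1 rose and 1 fell, and of 3 beta subunit genes 1 fell. Scn7a encodes Nax, a channel gated by sodium concentration and found in glia, smooth muscle and epithelium. It measured 6.86 to 11.02 in normal prostates (median 9.50) and 6.25 to 9.23 in tumours (median 7.84). Normal prostate 7 was low, at 6.86, with the other 8 at 8.89 or more, and among tumours only 1, at 9.23, reached above 8.89. The mean fell from 9.49 ± 1.17 to 7.88 ± 0.87, by 1.61 ± 0.45 SE (3.05-fold, limma adjusted p = 0.0255). All 3 of its probe sets fell, the others by 1.58 and 1.55. It did not pass without normal prostate 2 (-1.42, limma adjusted p = 0.0514) or normal prostate 4 (-1.49, limma adjusted p = 0.052), and not with the replicate number as a block (limma adjusted p = 0.0583). Nerve and Schwann cell markers, of which none was called of 4 measured, had summed signals of 1518 to 3311 in normal prostates and 1733 to 4709 in tumours. Their differences went both ways. Cnp gave 0.99 and Mbp 0.10 (limma adjusted p = 0.056 and 0.809). Sox10 gave -0.74 and S100b, dim on every tumour, -0.36 (limma adjusted p = 0.0639 and 0.399). All 5 measured adipocyte genes were lower in tumours. Normal prostate 7 had the lowest adipocyte score of the normal arrays, 5.94, and tumour 1 the highest of the tumours, 8.65. The part of nerve and of adipocytes in the fall of Scn7a was not tested.

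Scn1a encodes the neuronal channel Nav1.1. It was dim on all 9 normal prostates, at 5.76 to 6.60 (median 6.27), and measured 6.08 to 8.42 in tumours (median 7.58). All tumours but number 2, at 6.08, lay above every normal prostate. The mean rose from 6.25 ± 0.26 to 7.50 ± 0.66, a log2 difference of 1.25 ± 0.23 SE (limma adjusted p = 0.002). Set against the 40th percentile of the normal arrays, the tumours were at least 1.30-fold higher. The gene passed with the actin ratio as a covariate (1.14, limma adjusted p = 0.0178) but not within arrays with bright poly-A controls (1.12, limma adjusted p = 0.0739). Its other probe sets gave 1.32 and 0.42 and were not called. Scn4b, a beta subunit of muscle and neurons, measured 6.78 to 8.46 in normal prostates and 4.81 to 7.45 in tumours. It fell by 1.05 ± 0.31 SE (limma adjusted p = 0.0315), but the floored difference was -0.17, since it was dim on 5 normal arrays and 8 tumours. Its highest value, 8.46, came from normal prostate 1, which had the highest skeletal muscle score, 13.52. The call was lost without normal prostate 1 (-0.90, limma adjusted p = 0.0616) or 2 (-1.01, limma adjusted p = 0.0589), and without tumour 1, 2 or 9 (limma adjusted p = 0.0554, 0.055 and 0.052).

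**Figure D2:**
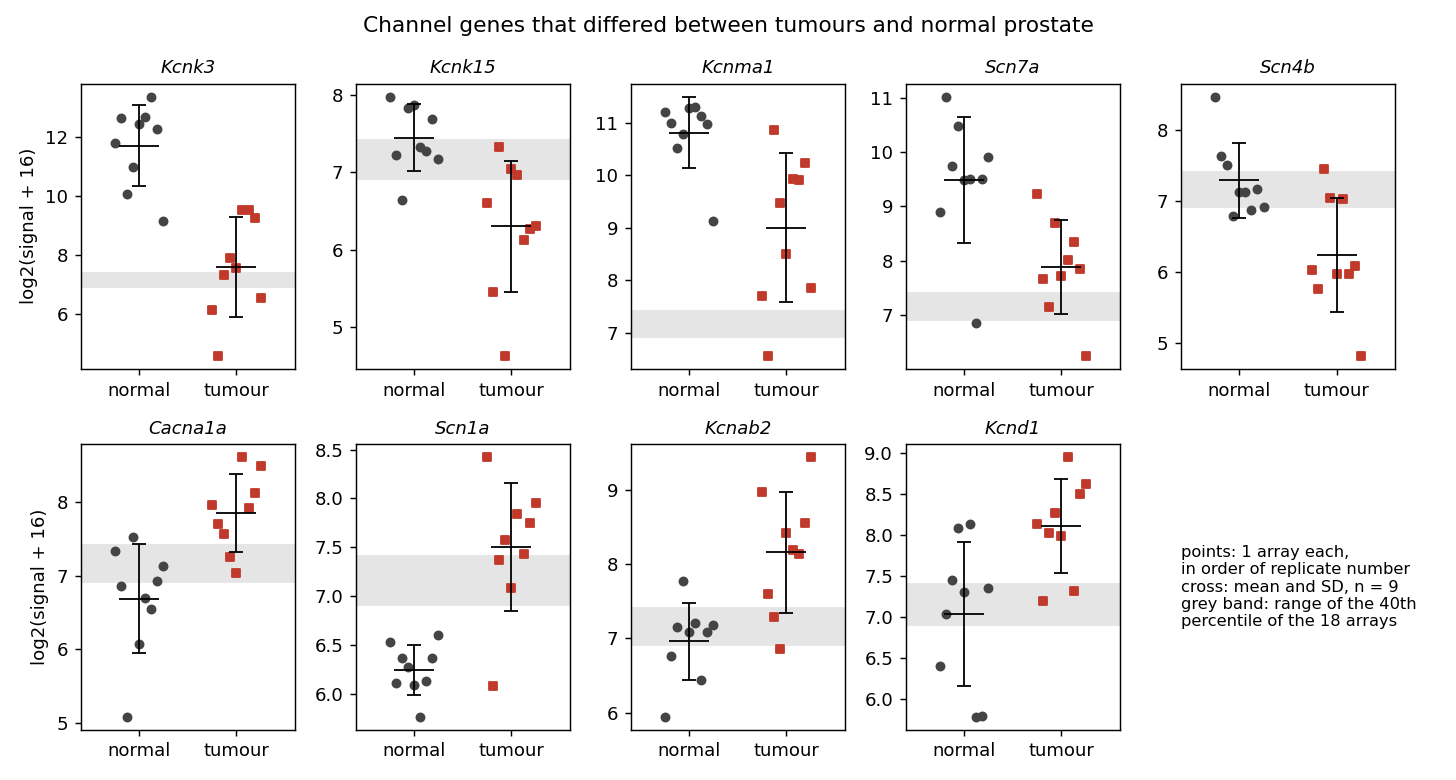
Each panel shows 1 of the 9 called genes, with log2(signal + 16) on the y axis, 1 point per array in order of replicate number, and the mean with SD of each group of 9. The grey band is the range of the 40th percentile over the 18 arrays: the 9 normal values of Kcnk3 and of Kcnma1 lie above it, as do 8 of Scn7a, whereas the 9 normal values of Scn1a lie below it.

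Other sodium channel genes were not called, yet some differed widely among tumours. Scn3a encodes Nav1.3, a neuronal channel prominent in development. It was dim on all 9 normal prostates, at 4.16 to 5.45, and in tumours 1, 4 and 9 it measured 12.38, 10.59 and 12.60. In the other 6 tumours it stood at 4.21 to 5.73. Its SD over tumours, 3.64, was the largest of any channel gene, and the group difference was 2.38 ± 1.12 SE (limma adjusted p = 0.181, floored 1.64). No fold is given, since the tumour mean, 7.10, did not exceed the mean 40th percentile of the normal arrays, 7.12. Scn8a, which encodes Nav1.6 of nodes of Ranvier, was highest in the same tumours, at 10.03, 9.27 and 10.18, with the others at 6.04 to 7.65. It was dim on all 9 normal prostates. Its difference of 1.58 ± 0.53 SE did not pass (limma adjusted p = 0.0575), but it passed without tumour 2 (1.81, limma adjusted p = 0.0312), tumour 3 (1.72, limma adjusted p = 0.0467) or tumour 7 (1.76, limma adjusted p = 0.0384), and with the replicate number as a block (limma adjusted p = 0.0479). The beta subunit Scn3b measured 10.69, 9.20 and 11.03 in tumours 1, 4 and 9 and at most 7.31 in the others, while normal prostates ranged from 5.89 to 8.29. Scn9a, the channel of pain-sensing neurons, was dim on all 18 arrays.

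In the same 3 tumours Kcnmb2, an inactivating beta subunit of BK channels, measured 11.79, 10.30 and 11.79. Normal prostates lay at 7.07 to 7.84, and the next highest tumour, number 3, at 8.83. Cacna2d1, the alpha2delta subunit bound by gabapentin, was 11.56, 10.37 and 11.81 in them and at most 9.78 in the other tumours (normal prostates 7.46 to 9.84). Cacna1b, the pore of N-type calcium channels that trigger transmitter release, was 8.75, 7.67 and 9.13, with at most 7.35 elsewhere among tumours. These tumours also had the highest neuroendocrine score, at 10.32, 9.13 and 10.48, where the other tumours reached 6.77 and normal prostates 6.70. Not every marker in the score followed it. Foxa2 was highest in tumour 2, at 11.57, and was 7.74, 6.46 and 7.69 in tumours 1, 4 and 9. Pcsk1 was 5.99, 6.94 and 6.17 in these 3 tumours, where its normal mean was 7.13. Of the 10 measured neuroendocrine markers none was called by limma, 3 were dim on all normal arrays, and the summed signal was 878 to 1236 in normal prostates and 504 to 32979 in tumours. Over all 9 tumours Scn3a, Scn3b, Kcnmb2, Cacna2d1 and Cacna1b did not pass at their brightest probe sets, with limma adjusted p-values of 0.17 to 0.427. A dimmer probe set of Scn3b was called higher (1.07, limma adjusted p = 0.0178), though it was dim on all 9 normal arrays and 8 tumours, with a floored difference of 0.07.

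Calcium channel pore genes included 1 rise among 9. Cacna1a encodes the pore of P/Q-type channels of nerve terminals. It measured 5.09 to 7.53 in normal prostates (median 6.86) and 7.03 to 8.60 in tumours (median 7.91). Tumours 4 and 5, at 7.25 and 7.03, overlapped with normal prostates, and the other 7 lay above all of them. The mean rose from 6.69 ± 0.74 to 7.85 ± 0.52, by 1.16 ± 0.29 SE (limma adjusted p = 0.014, floored 0.68). It was dim on 7 normal arrays and 1 tumour. Of its 4 probe sets 3 rose and the other, dim on all but 1 array, gave 0.80 (limma adjusted p = 0.13). It was highest in tumours 6 and 9, at 8.60 and 8.49, which had neuroendocrine scores of 6.77 and 10.48. For Cacna1a the differences were 0.90 and 1.41 within arrays with bright and dim poly-A controls, neither of which passed (limma adjusted p = 0.198 and 0.29), and 1.08 with the actin ratio as a covariate (limma adjusted p = 0.0695).

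L-type and T-type calcium channels did not pass. Cacna1c, the L-type channel of smooth and cardiac muscle, gave 0.86 ± 0.48 SE (limma adjusted p = 0.264), with its highest tumour values, 9.44, 9.21 and 9.12, in tumours 6, 8 and 9, whose smooth muscle scores were 12.94, 12.81 and 7.72. Cacna1d, the L-type channel of endocrine cells, was 7.94 ± 0.29 and 8.11 ± 0.70 in normal prostate and tumours (limma adjusted p = 0.711). The T-type genes Cacna1g and Cacna1h gave 0.90 ± 0.39 SE and -0.40 ± 0.52 SE (limma adjusted p = 0.145 and 0.676). Cacna1s, the channel of skeletal muscle, was 9.06 in normal prostate 1 and dim on the other 17 arrays, at 6.37 or less.

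None of the 15 accessory calcium channel genes was called by limma, and 6 passed an unadjusted p under 0.05, a threshold that 30.3% of all genes passed. All 4 alpha2delta genes had positive differences, from 0.22 to 1.21, the latter for Cacna2d2 (limma adjusted p = 0.0741). Among beta subunits, which carry the pore to the membrane, Cacnb1 gave 0.09 and Cacnb2 -0.21 (limma adjusted p = 0.825 and 0.76). Cacnb4 came closest to passing, with 7.73 ± 0.30 in normal prostate and 8.49 ± 0.67 in tumours (0.75 ± 0.24 SE, limma adjusted p = 0.0502). A dimmer probe set of Cacnb4 was called higher (2.06, limma adjusted p = 0.00331), though it was dim on 8 normal arrays and 6 tumours. Of 8 gamma subunit genes, several of which guide glutamate receptors, the skeletal muscle subunit Cacng1 gave 0.34 (limma adjusted p = 0.55), Cacng7 0.61 (limma adjusted p = 0.061) and Cacng5 1.46 (limma adjusted p = 0.136). Cacng6 gave -0.03, and a further probe set of it was called lower (-1.21, limma adjusted p = 0.0442) but was dim on 7 normal arrays and all 9 tumours.

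Among 31 voltage-gated potassium pore genes 1 rose and none fell. Kcnd1 encodes Kv4.1, an A-type channel that inactivates quickly. It measured 5.79 to 8.14 in normal prostates (median 7.31) and 7.20 to 8.95 in tumours (median 8.14). The groups overlapped in 4 tumours, and the mean rose from 7.04 ± 0.88 to 8.12 ± 0.57 (1.07 ± 0.33 SE, limma adjusted p = 0.0417, floored 0.69). This call was the least stable of the 9. It was lost when any 1 of normal prostates 1, 2, 5, 7 and 8 or of tumours 1, 3, 4, 6, 8 and 9 was left out (limma adjusted p = 0.0528 to 0.0791). It was also lost under 75th percentile centring (limma adjusted p = 0.059) and quantile normalization (limma adjusted p = 0.0611), and its differences were 0.52 and 2.04 within arrays with bright and dim poly-A controls. Its other probe sets gave 0.27 and 0.16. Kcna5, a Kv1 channel of heart and vascular muscle, came near the threshold in the other direction (-0.96 ± 0.31 SE, limma adjusted p = 0.0521), but was dim on all 9 tumours and 7 normal arrays. It passed without tumour 3 or without normal prostate 5, 6 or 7 (limma adjusted p = 0.0205 to 0.0455). Kcna3, a channel of lymphocytes, gave 0.64 (limma adjusted p = 0.195). Channels studied in cancer, Kcnh1 (EAG1) and Kcnh2 (HERG), gave 0.03 ± 0.17 SE and 0.53 ± 0.34 SE (limma adjusted p = 0.937 and 0.341). Kcnh2 was highest in tumours 6, 8 and 7, at 10.20, 10.18 and 9.76, and at most 8.82 in the others. Kcnq1, a channel of secretory epithelium, gave 0.29 ± 0.50 SE (limma adjusted p = 0.766), Kcnc1, a fast channel of neurons, 0.10 ± 0.61 SE (limma adjusted p = 0.942), and Kcnd3, an A-type channel of heart, -0.22 ± 0.54 SE (limma adjusted p = 0.84).

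Of the 11 accessory genes of voltage-gated potassium channels 1 rose. Kcnab2 encodes a cytoplasmic beta subunit of Kv1 channels. It measured 5.95 to 7.78 in normal prostates (median 7.08) and 6.86 to 9.43 in tumours (median 8.19), with the highest values in tumours 9 and 1, at 9.43 and 8.97. Tumours 2, 3 and 4 lay within the range of normal prostates. The mean rose from 6.96 ± 0.52 to 8.16 ± 0.81 (1.20 ± 0.31 SE, 2.30-fold, limma adjusted p = 0.0158, floored 0.98). With the replicate number as a block it did not pass (limma adjusted p = 0.0519), nor with the actin ratio as a covariate (limma adjusted p = 0.0557). Its other probe set was dim on all 18 arrays. A probe set of Kcnip1, a calcium sensor that binds Kv4 channels, was called higher (1.72, limma adjusted p = 0.0206) but is not the brightest of that gene, which gave 0.52 (limma adjusted p = 0.106). Kcnip4 gave -0.40 (limma adjusted p = 0.225) and Kcne3, a partner of KCNQ1 in epithelium, 0.19 (limma adjusted p = 0.792).

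None of the 15 inward rectifier genes was called by limma, and none passed an unadjusted p under 0.05. Kcnj11, the pore of the ATP-sensitive channel Kir6.2, was bright on all arrays, at 11.64 ± 0.38 in normal prostate and 11.70 ± 0.40 in tumours, a difference of 0.05 ± 0.19 SE (limma adjusted p = 0.896). Kcnj8, the ATP-sensitive pore of vascular smooth muscle, gave 0.13 ± 0.37 SE (limma adjusted p = 0.869). Kcnj15 differed widely among tumours, at 10.35, 10.34 and 9.17 in tumours 3, 5 and 7, 8.46 in tumour 4 and 7.40 or less in the others. The calcium-activated channel Kcnn4 was likewise highest in tumours 3, 5 and 7, at 13.03, 11.77 and 11.57, and lowest in tumours 9 and 1, at 4.88 and 4.92 (normal prostates 7.23 to 11.45). These 3 tumours had seminal vesicle scores of 15.08, 15.57 and 14.98, the highest of all arrays. Kcnn4 did not follow that score on every other array. It was 11.45 on normal prostate 8, close to tumour 7, where the score was 5.87. Tumour 4 had Kcnn4 at 10.52 with a score of 8.34. Tumours 6 and 8 had only 7.69 and 7.94 with scores of 10.83 and 10.85. On normal prostate 9, which had a seminal vesicle score of 12.09 where the other normal arrays reached 7.85, Kcnj15 was 7.44 and Kcnn4 8.29, both within the normal range. Of the 6 measured seminal vesicle genes none was called, and their summed signal was 341 to 105596 in normal prostates and 189 to 293185 in tumours. The part of seminal vesicle tissue was not tested.

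Normal prostate 9 carried the highest value among normal arrays for 32 of the 115 channel genes, and no other normal array did so for more than 15. Kcnj16, a partner subunit of inward rectifiers in transporting epithelium, was 11.59 there and 7.18 or less on the other normal arrays. The silent subunit gene Kcns3 was 10.12 there and 7.37 or less on the others. Its relative Kcng1 was 9.975 there, 11.15, 10.78 and 11.18 in tumours 6, 7 and 8, and 8.83 or less on the remaining arrays. Smooth muscle scores were 12.79 on normal prostate 9 and 12.94, 13.06 and 12.81 on those tumours, the 4 highest of the 18 arrays. Normal prostates 5 and 3 came next, at 12.62 and 12.41, with Kcng1 at 8.83 or less. Seminal vesicle scores of the same 4 arrays were 12.09, 10.83, 14.98 and 10.85. In tumours 3 and 5, also with Kcng1 at 8.83 or less, they were 15.08 and 15.57. The part of either tissue was not tested. Kcnf1, another silent subunit, was highest among normal arrays in normal prostates 5 and 3, at 8.78 and 8.37. These 2 had the highest urothelial scores of the normal arrays, 11.67 and 13.56. They were also the normal arrays highest in smooth muscle score after normal prostate 9. Without normal prostate 9 the difference of Kcnj16 went from -0.91 to -0.36. In that fit 6 channel genes were higher and 5 lower (9.57%), and of their 243 probe sets 12 were higher and 9 lower. The share of all probe sets called was 14%, where it was 11.5% over all arrays.

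**Figure D3:**
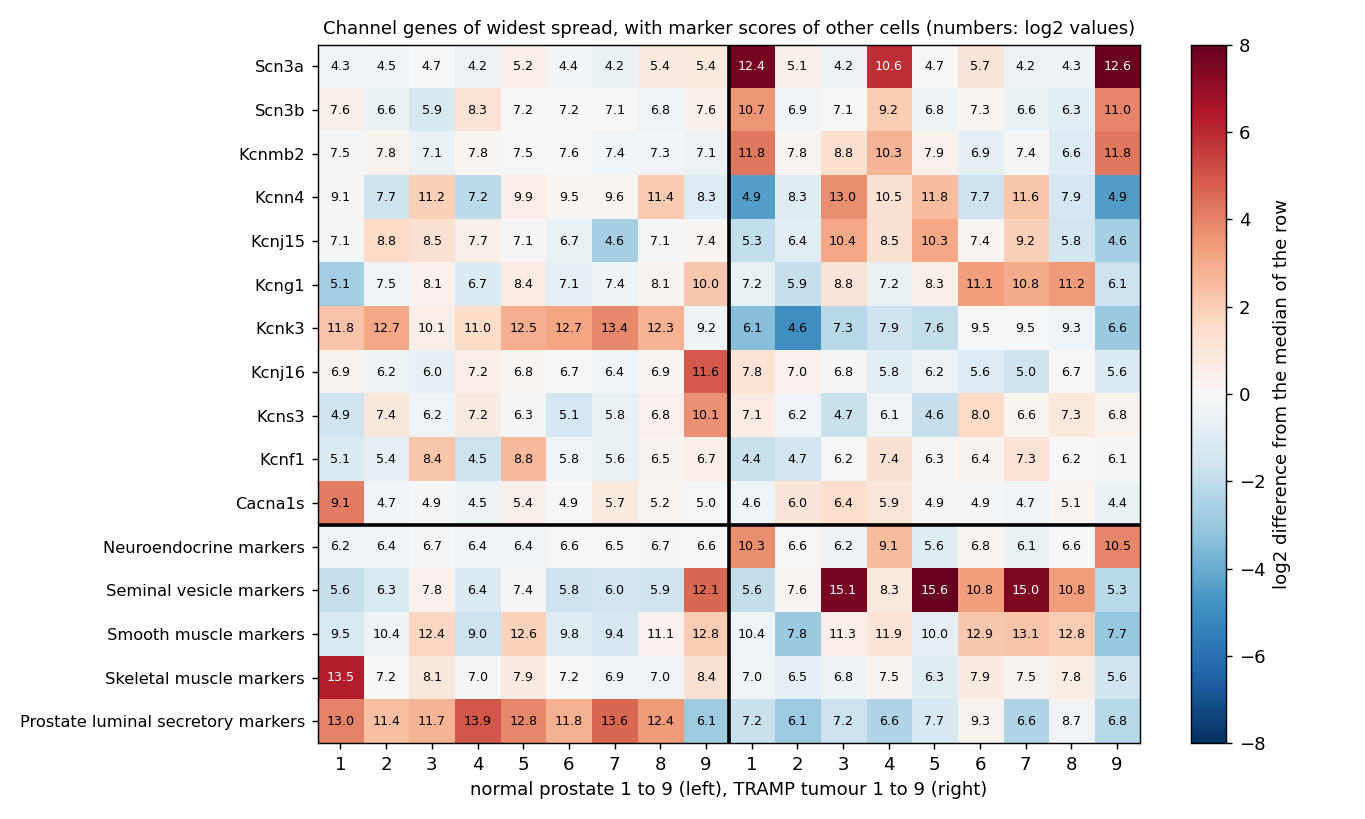
Rows above the line are the 11 channel genes with the largest SD over tumours or over normal prostates, rows below it are mean log2 scores of markers of other cells, and columns are the 18 arrays. Numbers are log2 values and colour is the log2 difference from the median of the row. Scn3a, Scn3b and Kcnmb2 are high in tumours 1, 4 and 9 together with neuroendocrine markers. Cacna1s is high in normal prostate 1 together with skeletal muscle markers. Kcnn4 and Kcnj15 are highest in tumours 3, 5 and 7, the arrays highest in seminal vesicle markers. Kcnn4 is also high in normal prostate 8, at 11.45, where the seminal vesicle score is 5.87.

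Counts of calls also changed when arrays high in markers of other tissues were left out, which alters the number of samples and the tumours compared. Without normal prostate 9 and tumours 3, 5 and 7, the arrays highest in seminal vesicle genes, 11 channel genes were higher and 7 lower (15.7%). Of their 243 probe sets 19 were higher and 11 lower, where 16.5% of all probe sets were called. Shares of genes and of probe sets are unlike units: the fit of all arrays called 14.4% of all genes and 11.5% of all probe sets. When tumours 6 and 8 were left out as well, 12 channel genes were higher and 9 lower (18.3%). Of their probe sets 30 were higher and 16 lower, where 21.1% of all probe sets were called. Scn3a (at least 8.34-fold, floored log2 difference 3.52, limma adjusted p = 0.00272), Kcnmb2 (2.92, limma adjusted p = 0.00349), Cacna1b (1.84, limma adjusted p = 0.00602) and Scn3b (2.38, limma adjusted p = 0.0197) were among the genes higher. That fit keeps tumours 1, 2, 4 and 9 alone, of which 3 are those with the highest neuroendocrine scores. Kcnk1 passed in it too, at -3.03 (limma adjusted p = 0.00435). Without normal prostates 1, 3 and 5 and tumour 4, high in skeletal muscle or urothelial genes, 3 channel genes were higher and 1 lower, Kcnk3 (3.48%). Of their probe sets 5 were higher and 3 lower, where 6.09% of all probe sets were called.

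Of 62 other genes of ion transport outside the rule 2 were higher and 7 lower (14.5%), close to the 14.4% of all genes called. Trpv6, an epithelial calcium channel, fell from 11.51 ± 1.17 in normal prostate (-3.51 ± 0.75 SE, limma adjusted p = 0.00515, floored -3.14) and was 10.65, 10.55 and 11.21 in tumours 3, 5 and 7 with 7.35 or less in the others. Atp2c2, a calcium pump of secretory pathway membranes, fell by 2.91 ± 0.59 SE (limma adjusted p = 0.00362). Scnn1b, Orai1, Clcn3, Ano10 and Trpm8 fell by 0.50 to 1.28, with Trpm8 dim on all arrays, and the sodium-calcium exchanger Slc8a1 and the chloride transporter Clcn6 rose by 1.26 and 1.01. Of 28 measured partners and regulators of channels 1 was higher and 4 lower (17.9%, where all genes gave 14.4%). Dlg4 encodes PSD-95, a scaffold that clusters Kv1 channels. Its mean rose from 6.44 to 8.19 (1.74 ± 0.39 SE, limma adjusted p = 0.00644, floored 0.97). Besides Lrrc52, the falls were Amigo1, a partner of Kv2 channels (-1.13), the anchoring protein Akap9 (-0.71) and the scaffold Dlg1 (-0.58).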

How the data were processed

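Per the labels' protocols, Trizol total RNA was biotin-labelled for Affymetrix arrays. The deposited intensities are signals made by the authors with MAS5, per the submitters' processing notes (version not given in the sources used here). Their 2% trimmed mean was 500 on all 18 arrays, so differences at low intensity remain. Of 45101 probe sets 34945 name 1 gene in the platform table, 932 several, 9160 none, and 64 are controls. Sample titles gave groups and replicate numbers.

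Log2(signal + 16) of all 45037 other probe sets was tested in R 4.3.3 with limma 3.58.1 (two-sided moderated test of lmFit and eBayes with group as the only term, Benjamini-Hochberg adjustment, threshold 0.05), and the code was tested on simulated data. Members, gene lists and alternatives were chosen with earlier results of these data known. Named genes were the called members, the 6 of largest SD in each group and 44 fixed by name, of which some are not reported here. Genes close to the threshold or called at another probe set, and Kcnk6, were added after their values were seen. The main fit did not pair samples by replicate number. Deviations of same-numbered samples correlated at -0.077 to 0.35, with 1 of 9 pairs above 0.1. That pair was number 8, and normal prostate 8 correlated best with tumour 8. Weak correlations of this kind cannot exclude a shared origin or processing day. Tables and plots used Python 3.11.15 and matplotlib 3.10.9.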

Additional observations from a re-analysis of the deposited data

Results flagged for a closer look

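A value was singled out where its gap to the nearest array of its group was large against the range of the group (Dixon's criterion for 9 samples), which chance meets in about 1 of 20 groups of genes chosen without regard to spread. That share does not apply to Kcnj16, Kcns3 and Cacna1s, which were among the genes of largest SD over normal prostates. Of the 96 groups of 9 values examined for the 48 named genes 9 met it, all in normal prostate. Normal prostate 9 gave 4 of them: Kcnj16 at 11.59 with the others at 5.98 to 7.18, Kcns3 at 10.12 with the others at 4.90 to 7.37, Kcnh2 at 9.29 with the others at 7.68 to 8.49, and Kcnma1 at 9.12 with the others at 10.52 to 11.31. Normal prostate 1 gave Cacna1s at 9.06, with the others at 4.52 to 5.70, and Scn4b at 8.46, with the others at 6.78 to 7.63. Normal prostate 4 was low in Kcnmb4, at 5.65 with the others at 7.05 to 7.61, and in Kcnh1, at 6.73 with the others at 7.28 to 7.71. Normal prostate 7 was low in Kcnj15, at 4.58 with the others at 6.66 to 8.79.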

How the results depend on the processing

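Over 36 alternatives run for 48 named genes no called value changed sign. Calls were lost in 56 cases and gained in 28, and 62 uncalled values, in 21 genes, changed sign. Kcnk3 kept its call in 35 of 36 alternatives run, Kcnma1 in 33 of 36, Scn1a in 32 of 34, Cacna1a in 32 of 35, Kcnk15 in 31 of 35, Kcnab2 in 30 of 35, Scn7a in 29 of 36, Scn4b in 24 of 34 and Kcnd1 in 14 of 35. Against 4 genes higher and 5 lower and 9 probe sets each way, array weights gave 8 genes and 17 probe sets higher. That fit called 12.2% of channel genes and 14.6% of all probe sets. The 40th percentile filter gave 5 probe sets higher, and the 60th percentile filter 1 gene and 1 probe set higher and 5 probe sets lower. Of the 53 channel genes left by the 40th percentile filter 20.8% were called, with 19.6% of all probe sets. Of the 13 left by the 60th percentile filter 38.5% were called, 1 higher and 4 lower, with 24.1% of all probe sets. Shares of genes and of probe sets are unlike units: the main fit called 14.4% of all genes and 11.5% of all probe sets. The actin ratio as a covariate left 1 gene and 3 probe sets higher and 3 genes lower. Arrays with bright poly-A controls alone gave 0 genes and 2 probe sets higher and 3 genes lower (limma), and those with dim controls gave 0 in every count (limma, with 3 against 4 arrays). Without the 4 arrays highest in seminal vesicle genes 11 genes and 19 probe sets were higher. Without the 6 arrays high in them 12 genes and 30 probe sets were higher and 9 genes and 16 probe sets lower. Without arrays high in skeletal muscle or urothelial genes 5 probe sets were higher, and 1 gene and 3 probe sets lower. When single arrays were left out, genes higher ranged from 3 to 7, genes lower from 3 to 7, probe sets higher from 7 to 14 and probe sets lower from 4 to 9. Without tumour 2 there were 7 genes and 14 probe sets higher and 5 probe sets lower, without normal prostate 2 3 genes and 4 probe sets lower, and without normal prostate 4 or tumour 9 5 probe sets lower. Of all probe sets 10.4% were called without tumour 2, 8.85% without normal prostate 2 or 4, and 9.57% without tumour 9. With the replicate number as a block 5 genes were higher and 4 lower (7.83%, with 9.55% of all probe sets called). The block ended the calls of Kcnab2 and Scn7a, added Scn8a among the named genes and changed no other named call. The causes of these changes in calls were not tested. Low signal limits these results, since only 53 of the 115 genes were above the 40th percentile on 9 or more arrays.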
